A study of Mus musculus with 12 samples.

Results

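The genes of tryptophan breakdown by the kynurenine route were followed in 12 MC38 tumors. These were the rows of the count table that carry the symbols Ido1, Ido2, Tdo2, Kynu, Kmo, Wars and Ahr, 7 of the 23282 lines, and all 7 were found. MC38 is a mouse colon carcinoma line, and its cells had been grafted subcutaneously into the right flank of C57BL/6 females, labelled as wild type. The mice were aged 6 weeks when purchased and were then acclimated. The Con group received saline and an IgG2a antibody, the SFIH group 50 mg/kg per day of a sesquiterpene lactone-rich fraction of Inula helenium, the PD group 200 µg of an anti-PD-1 antibody on a twice-weekly schedule, and the Comb group both treatments. The saline held DMSO and Tween, in which the fraction was also dissolved, and the SFIH group received IgG2a as well. Each group held 3 tumors, taken on day 19, and RNA of whole tumor tissue was read from the 3′ ends of transcripts (QuantSeq). SFIH is a plant fraction rather than a single compound, and the tumor lives in a host whose own blood vessel, stromal and immune cells contribute to the RNA.

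Tryptophan is an essential amino acid, and most of what is not built into protein is broken down along the kynurenine route. IDO1, IDO2 and TDO2 are the dioxygenases that open its ring, KMO and KYNU act on the kynurenine that results, and the remaining steps lead to NAD. Wars encodes the cytosolic tryptophanyl-tRNA synthetase, which loads tryptophan onto its tRNA, and AHR is a ligand-activated transcription factor to which kynurenine can bind. In tumors, IDO1 is known as an enzyme that interferon gamma induces in antigen-presenting cells and tumor cells and that restrains T cells, while TDO2 is chiefly an enzyme of the liver. The question that the 4 groups put to these genes was whether SFIH, anti-PD-1 antibody or their combination changed the RNA of the route.

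Of the 7 genes, 6 had enough reads to be tested, and 0 of the 6 were called different in any of 6 comparisons at an adjusted p under 0.05 in edgeR. The background was the same, since 0 of 13464 genes or 0% were called in each comparison. At an unadjusted p under 0.05 there were 303 to 3406 genes (2.25 to 25.3%) and 0 to 2 members per comparison, and DESeq2 called 1 to 2031 genes and 0 to 1 members. Levels are given as CPM, the count per 1000000 reads counted in the tumor. Kmo had the clearest difference, with higher values in tumors given anti-PD-1 antibody, above all in Comb replicates 2 and 3 and PD replicate 2. Kynu and Tdo2 were read mainly in the same tumors, but at few counts. Ido1 and Ido2 were lowest in Comb replicate 3, and Wars varied least among the members. The plot of levels by tumor shows each gene in each tumor.

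**Figure D1:**
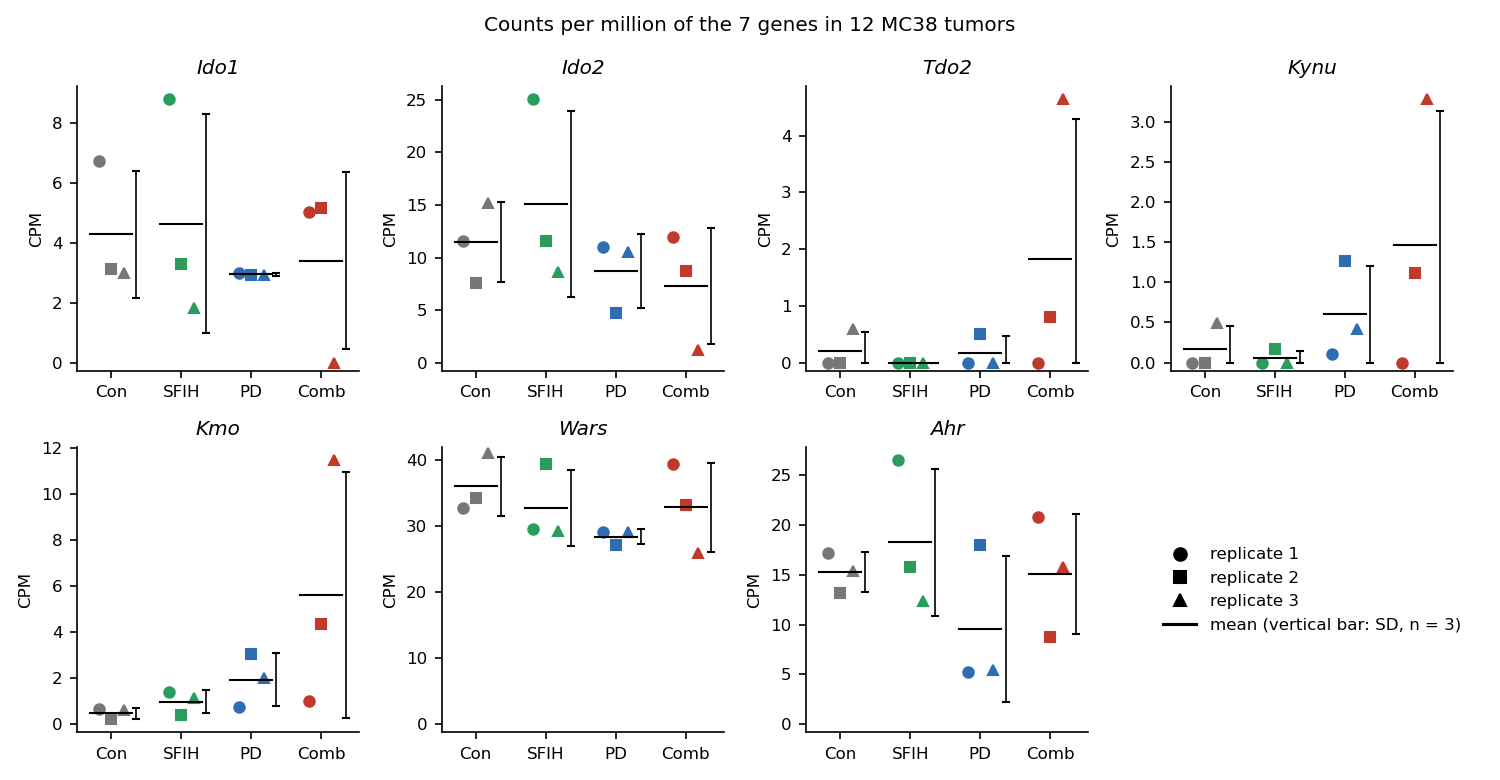
Read counts scaled to library size (CPM, linear axis) of the 7 genes in the 12 tumors by group, where the marker shape gives the replicate, the horizontal bar the mean and the vertical bar the SD of 3 tumors, drawn no lower than 0. Kmo reached 11.5 CPM in Comb replicate 3 and stayed at or under 1.39 CPM in all Con and SFIH tumors, whereas Wars stayed between 25.9 and 41.1 CPM in all 12.

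Total counts ran from 7870741 to 12261032 per tumor with a median of 9932321, so that 3 counts, taken as the floor of the method, correspond to 0.245 to 0.381 CPM. This floor covers counting error only. The ribosomal gene Rn45s took 4.28 to 17.1% of the counts. Comb replicate 3 stood apart from the other 11 tumors. Its 8 skeletal muscle markers summed to 5051 CPM against 2.8 to 637.8 CPM elsewhere, its 5 keratinocyte markers to 306 CPM against 28.6 CPM or less, and its 8 hepatocyte markers to 130.8 CPM against 14.7 CPM or less. Its 10 macrophage markers summed to 11030 CPM against 595.2 to 3521 CPM. Results that rest on this tumor are therefore given with and without it. The labels name the samples tumor cells, yet of 8 epithelial markers Cdx2 was at no more than 1 count in all 12 tumors, Epcam, Krt19, Krt20, Krt18 and Krt8 had medians of 2 to 7 counts, and Vil1 and Cdh1 medians of 20 and 39. In Comb replicate 3, Krt8, Krt18, Krt19 and Epcam reached 255, 219, 237 and 85 counts, and Cdh1 and Krt20 157 and 13. Vil1 and Cdx2 had 0 counts in that tumor, so that the 8 markers did not rise together. In bulk tissue, fewer cells of a type and less RNA per cell cannot be told apart.

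The sequence upstream of a gene is shown for Kmo and Tdo2, because these 2 genes were highest in the same tumor and because the reference table of promoters (RefSeq, build GRCm38.p6) holds these 2 of the 7 members. Each runs in the direction of the gene from 250 bases before its start to 50 bases after, and capitals mark a match to the AHR core GCGTG on either strand.
Kmo, chr1:175631943-175632242, plus strand: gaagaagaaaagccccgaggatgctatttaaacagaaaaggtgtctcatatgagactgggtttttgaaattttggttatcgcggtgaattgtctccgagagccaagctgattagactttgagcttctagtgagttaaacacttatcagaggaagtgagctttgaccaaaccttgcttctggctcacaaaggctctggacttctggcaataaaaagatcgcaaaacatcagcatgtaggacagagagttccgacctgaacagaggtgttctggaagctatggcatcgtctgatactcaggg
Tdo2, chr3:81975679-81975978, minus strand: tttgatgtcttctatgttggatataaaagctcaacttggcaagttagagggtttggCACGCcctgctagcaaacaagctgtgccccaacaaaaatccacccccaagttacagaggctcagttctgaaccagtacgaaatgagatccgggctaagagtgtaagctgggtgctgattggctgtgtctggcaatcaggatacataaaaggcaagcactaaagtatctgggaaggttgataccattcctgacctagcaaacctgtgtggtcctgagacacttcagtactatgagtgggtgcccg

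Both windows were searched on both strands for the gamma-activated sequence TTCNNNGAA, the interferon-stimulated response element (GAAA, any 2 bases, GAAA) and the AHR core GCGTG, none of which contains another. The Kmo window held none of them, and the Tdo2 window held 1 AHR core, read as CACGC on the gene's own strand, 194 bases before the start. Among 32851 promoters of the same length, 8.3% held the gamma-activated sequence, 3.44% the response element and 32.4% the AHR core. A match is a string of letters and not a bound site, and the absence of a match speaks only for these windows.

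Ido1 and Ido2 encode dioxygenases of the first step and lie next to each other on chromosome 8. The Ido1 counts were 74, 30 and 30 for Con, 108, 40 and 18 for SFIH, 28, 23 and 28 for PD, and 51, 51 and 0 for Comb, in the order of the replicates. The highest tumor was SFIH replicate 1 at 8.81 CPM, the lowest was Comb replicate 3, where 0 counts allow a level of up to 0.273 CPM, and each treated group overlapped Con. The mean was 4.29 ± 2.13 CPM for Con, 4.65 ± 3.67 for SFIH, 2.95 ± 0.0496 for PD and 3.41 ± 2.96 for Comb (SD, n = 3).

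None of these differences exceeded the spread between tumors. By the quasi-likelihood test of edgeR, with p-values adjusted by Benjamini-Hochberg over all genes tested, the log2 fold change of Ido1 was 0.07 (SE 0.96) in SFIH, -0.45 (SE 0.98) in PD and -0.17 (SE 0.97) in Comb, each against Con, with adjusted p-values of 1, 1 and 0.92. In PD against Con the 95% interval reached from -2.60 to 1.70, so that large changes in either direction could not be told from none at this spread. Without Comb replicate 3, the value in Comb against Con was 0.41 (adjusted p = 0.738), so that the sign of this difference rested on that tumor.

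Ido2 was read more often than Ido1 in 12 of 12 tumors. Its counts were 127, 73 and 152 for Con, 308, 140 and 84 for SFIH, 102, 37 and 101 for PD, and 121, 86 and 13 for Comb. SFIH replicate 1 was again the highest at 25.1 CPM and Comb replicate 3 the lowest at 1.18 CPM, a 21.2-fold range, and all 4 groups overlapped. The group means were 11.5 ± 3.79 CPM for Con, 15.1 ± 8.81 for SFIH, 8.75 ± 3.51 for PD and 7.30 ± 5.54 for Comb (SD, n = 3). The log2 fold change against Con was 0.38 (SE 0.61) in SFIH, -0.30 (SE 0.62) in PD and -0.46 (SE 0.62) in Comb, with adjusted p-values in edgeR of 1, 1 and 0.633. The last of these was 0.02 without Comb replicate 3. Ido1 made up 16.5 to 38.3% of the reads of both genes in the 11 tumors with any Ido1 read, with no order by group.

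Across the 12 tumors the levels of Ido1 and Ido2, as log2(CPM + 1), had a Pearson r of 0.851 (p = 0.0025, permutation test) and a Spearman rho of 0.678 (p = 0.019, permutation test). Without Comb replicate 3 and SFIH replicate 1, the 2 tumors farthest from the median of Ido1, r was 0.253 (p = 0.48, permutation test, n = 10), so that the relation rested on these tumors, whose removal also narrows the range of Ido1. With Comb replicate 3 alone left out, r was 0.589 (p = 0.058) and rho 0.582 (p = 0.066, permutation tests, n = 11). It was the only relation between members that was computed across tumors, and both values of a point share a library and its depth.

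Dendritic cells are a known site of Ido1 and Ido2, and their markers gave a divided picture in the tumor where both genes were lowest. The 10 dendritic markers, of which none was at 0 in all tumors of a group, summed to 481.5 to 552.5 CPM for Con, 406.2 to 590.2 for SFIH, 414.4 to 625.2 for PD and 261.8 to 474.2 for Comb. Fscn1, an actin-bundling gene that carcinoma cells can also express, made up 75.9 to 93.9% of that sum in 11 tumors and 20.2% in Comb replicate 3. The other 9 markers summed to 209 CPM in Comb replicate 3 against 29.5 to 76.4 CPM elsewhere. Of the 10 markers, 7 were highest in Comb replicate 3, whereas Zbtb46 and Fscn1 were lowest there and Ccr7 was highest in Con replicate 1. Itgax at 93.1 CPM and Batf3 at 52.5 CPM were the largest of the 9 in Comb replicate 3. Both genes were thus at their lowest where the sum of all 10 markers was lowest and the sum of the 9 was highest. The part of cell composition in the levels of Ido1 and Ido2 was not tested.

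Tdo2, a dioxygenase chiefly of the liver, was hardly detected. Its counts were 0, 0 and 6 for Con, 0, 0 and 0 for SFIH, 0, 4 and 0 for PD, and 0, 8 and 51 for Comb. A total of 8 tumors had no read, and Comb replicate 3 alone held 51 of the 69 reads. The gene did not pass the filter on low counts and was not tested in edgeR. In DESeq2, which kept it, the log2 fold change in Comb against Con was 3.75 (SE 2.81, adjusted p = 0.375). The same tumor had the highest hepatocyte marker sum, in which Fga was at 0 in all 12 tumors and Cps1 was read only there, at 11 counts, and the part of other tissue in the Tdo2 reads was not tested.

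Kmo encodes kynurenine 3-monooxygenase, which turns kynurenine into 3-hydroxykynurenine. Its counts were 7, 2 and 6 for Con, 17, 5 and 11 for SFIH, 7, 24 and 19 for PD, and 10, 43 and 126 for Comb. As CPM these were 0.639, 0.208 and 0.599 for Con, 1.39, 0.412 and 1.13 for SFIH, 0.753, 3.05 and 1.99 for PD, and 0.991, 4.37 and 11.5 for Comb. All PD tumors and all Comb tumors lay above all Con tumors, which was the case for 5.76% and 7.6% of the genes tested, and 4 of the 6 tumors given anti-PD-1 antibody lay above all 6 of the others. Con replicate 2 was under the floor of 3 counts, so that the lower end of the range was set by very few reads.

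The group means were 0.482 ± 0.238 CPM for Con, 0.975 ± 0.504 for SFIH, 1.93 ± 1.15 for PD and 5.61 ± 5.35 for Comb (SD, n = 3). In Comb against Con the log2 fold change was 3.91 (SE 0.99, 95% interval 1.75 to 6.08) with an adjusted p of 0.0671 in edgeR. DESeq2 gave 3.98 (SE 0.96, adjusted p = 0.00121) and called this member as 1 of 2031 genes, or 13.2% of those it tested. At an unadjusted p under 0.05, edgeR had 3406 genes or 25.3%, of which Kmo was the only member, at rank 420 of 13464.

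The value of Kmo in Comb against Con depended on Comb replicate 3 in size, while its sign was positive with and without it. Without it the log2 fold change in Comb against Con was 2.66 (SE 0.86, adjusted p = 0.147 in edgeR), and DESeq2 gave 2.72 (adjusted p = 0.0632). Without Comb replicate 1, edgeR gave 4.43 with an adjusted p of 0.00528, in a fit that called 28.5% of all genes against 0% with 12 tumors. The call of Kmo, like those of many other genes, therefore turned on which Comb tumors were included.

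The other comparisons gave Kmo smaller differences, all of them positive with 12 tumors. In PD against Con the log2 fold change was 2.08 (SE 0.96, adjusted p = 1 in edgeR), in Comb against PD it was 1.83 (SE 0.88, adjusted p = 0.292) and in SFIH against Con 0.99 (SE 0.96, adjusted p = 1). The interaction, that is how much the SFIH difference under anti-PD-1 antibody exceeded that without it, was 0.84 (SE 1.33, adjusted p = 0.894) and, without Comb replicate 3, -0.40. For the average of PD against Con and Comb against SFIH, called here the anti-PD-1 average, edgeR gave 2.50 (SE 0.66, adjusted p = 0.098) and DESeq2 2.54 (adjusted p = 0.00542), where DESeq2 called 7.89% of all genes. The average was 1.87 without Comb replicate 3 (adjusted p = 0.111 in edgeR, and 0.0363 in DESeq2).

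A test on levels that permutes anti-PD-1 antibody within tumors with and without SFIH can reach a p of 0.005 over its 400 arrangements. For Kmo it gave a difference of 1.16 in log2(CPM + 1) with an exact permutation p of 0.025, from 0.751 without the antibody to 1.91 with it. The same test was run for all 7 genes, and these p-values carry no correction. Leaving out SFIH replicate 2 or 3 gave exact permutation p-values of 0.065 and 0.05, and leaving out Comb replicate 3 gave a difference of 0.838 with an exact permutation p of 0.045.

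**Figure D2:**
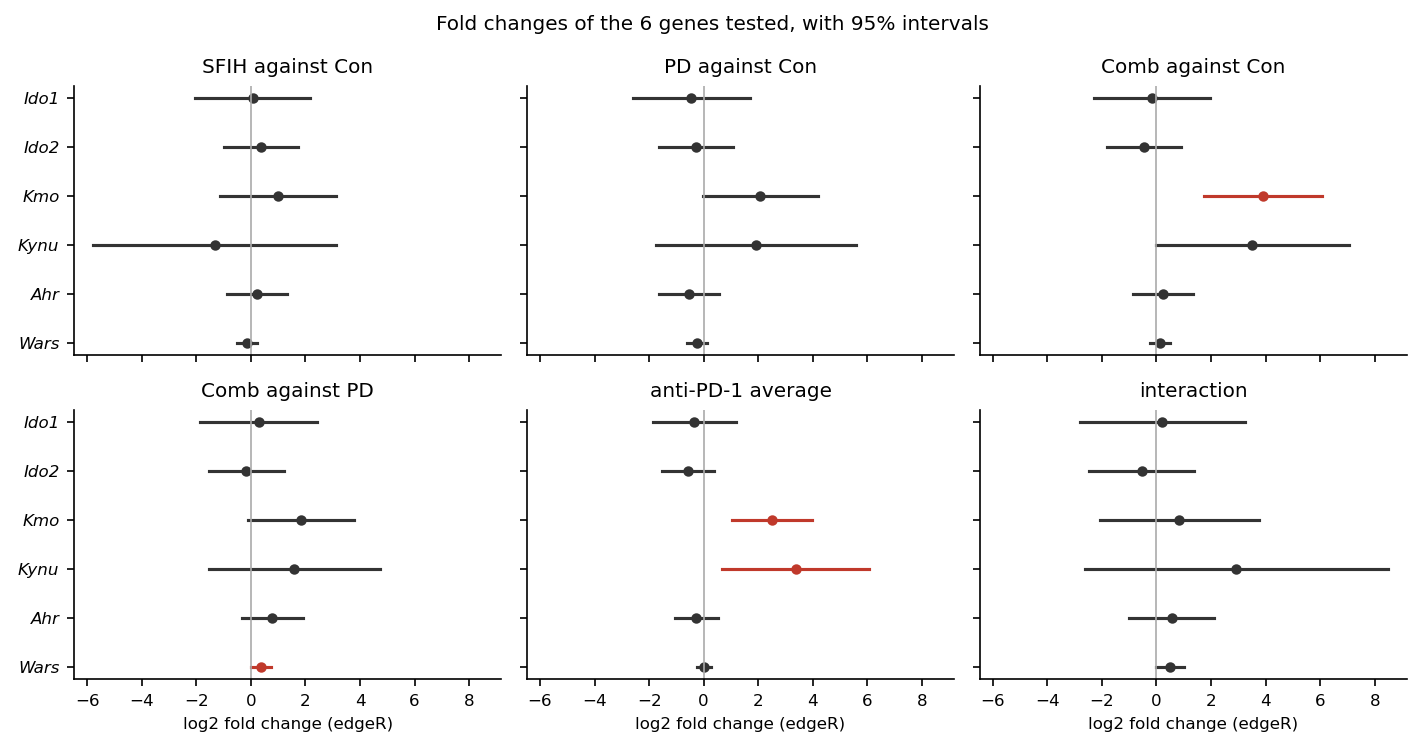
Log2 fold changes (horizontal axis, edgeR) of the 6 genes tested in 6 comparisons, where points are estimates, bars are 95% intervals before adjustment and red marks an interval that leaves out 0. Kmo in Comb against Con (3.91), Kmo and Kynu in the anti-PD-1 average (2.50 and 3.37) and Wars in Comb against PD (0.37) were the members whose interval left out 0.

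Kmo is known in macrophages among other cells, and the tumors with more Kmo also held more RNA of macrophage markers. The 10 macrophage markers, none of which was at 0 in all tumors of a group, summed to 595.2 to 1065 CPM for Con, 988.3 to 1186 for SFIH, 1018 to 1855 for PD and 1117 to 11030 for Comb. The 9 of them that were tested were all higher in Comb than in Con, with a median log2 fold change of 2.83, or 1.59 without Comb replicate 3. The 8 fibroblast markers, with sums of 2241 to 2963 CPM for Con and 2985 to 17310 CPM for Comb, and the 10 T cell markers, with 39.7 to 66.2 and 60.3 to 285.9 CPM, had their highest sums in the same tumor. Not every marker followed, since 5 of the 8 fibroblast markers and 7 of the 10 T cell markers were highest there, Pdgfra was lowest there, and Cd8a and Lck were highest in PD replicate 2.

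Per 1000 CPM of macrophage markers, Kmo was at 0.712, 0.35 and 0.562 CPM for Con, 1.17, 0.394 and 1.14 for SFIH, 0.739, 1.64 and 1.44 for PD, and 0.887, 1.24 and 1.04 for Comb. Across 12 tumors this ratio spanned a far narrower range than Kmo itself, which spanned 55.1-fold, and its highest value was in PD replicate 2 rather than in Comb replicate 3. The sum was mostly C1qa, C1qb and C1qc in Comb replicate 3, at 3314, 3644 and 1449 CPM against 761, 938 and 542 CPM in Comb replicate 2. Csf1r and Fcgr1 differed less between these 2 tumors, at 738 against 594 CPM and 118 against 105 CPM. Ratios to single markers were not computed, so the order of tumors holds only for the ratio to this sum. All PD and Comb tumors lay above all Con tumors in this ratio, but PD replicate 1 at 0.739 was close to Con replicate 1 at 0.712. Each of these values rested on 7 Kmo counts. The share of all genes separated in this way was not computed for the ratio. The part of cell composition in the Kmo difference was not tested.

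**Figure D3:**
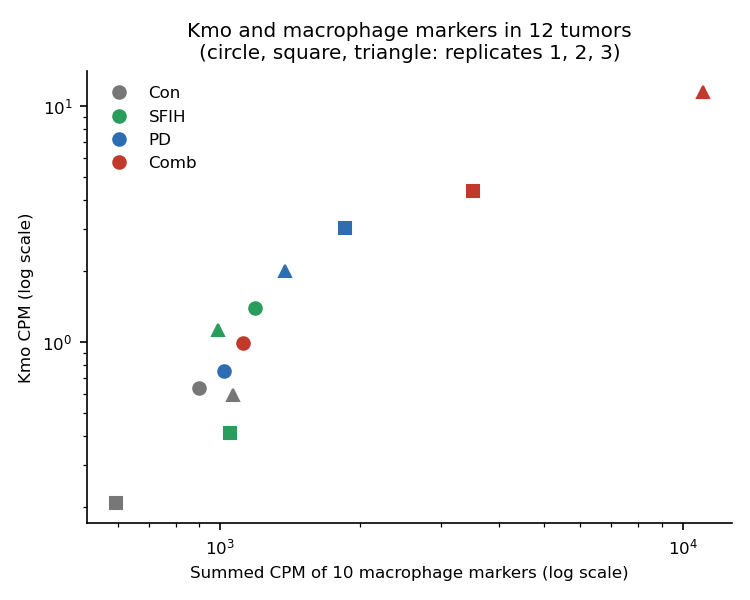
Kmo (CPM, log axis) against the summed CPM of 10 macrophage markers (log axis) in 12 tumors, where the colour gives the group and the shape the replicate. Comb replicate 3 lies alone at 11030 CPM of markers and 11.5 CPM of Kmo, and Comb replicate 2 follows at 3521 and 4.37 CPM.

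Kynu encodes kynureninase, which cleaves kynurenine and 3-hydroxykynurenine. Its counts were 0, 0 and 5 for Con, 0, 2 and 0 for SFIH, 1, 10 and 4 for PD, and 0, 11 and 36 for Comb. At least 5 reads were thus reached in PD replicate 2, Comb replicates 2 and 3 and Con replicate 3, and 7 of the 12 tumors were at or under 3 counts. The log2 fold change was 3.51 (SE 1.61, adjusted p = 0.202 in edgeR) in Comb against Con and 3.37 (SE 1.23, adjusted p = 0.169) in the anti-PD-1 average. These were 1.94 (adjusted p = 0.559) and 2.58 (adjusted p = 0.26) without Comb replicate 3. Without Comb replicate 1, which had no read, they were 4.10 (adjusted p = 0.0475) and 3.66 (adjusted p = 0.0349), in fits that called 28.5% and 17.1% of all genes against 0% with 12 tumors. The permutation test of levels gave a difference of 0.702 in log2(CPM + 1) with an exact permutation p of 0.08.

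The other listed enzymes, of the kynurenine route, its side branches and NAD synthesis, did not move together. Of 12 listed genes, 9 were tested and 0 were called by edgeR in any comparison. In the anti-PD-1 average 3 of the 9 were higher and 6 lower, with a median log2 fold change of -0.24 beside -0.03 for all genes tested. Nmnat2 had the largest difference there among those with enough counts, at 0.73 (SE 0.67, adjusted p = 0.598 in edgeR), or 0.47 without Comb replicate 3. Haao, the dioxygenase that acts on the product of kynureninase, had counts of 16, 8 and 11 for Con, 14, 20 and 5 for SFIH, 15, 16 and 14 for PD, and 6, 23 and 11 for Comb, and its value in the average was 0.62 (SE 0.43, adjusted p = 0.478 in edgeR). Haao thus had no more than 23 counts in any tumor. As CPM its PD tumors, from 1.46 up to 2.03, lay just above the Con tumors, from 0.832 up to 1.46, as did 5.76% of the genes tested, and the Comb tumors spanned both groups.

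Afmid, the formamidase that frees kynurenine, stood at -0.16 (SE 0.22) in the average. Among the aminotransferases that make kynurenic acid, Kyat3, listed under its older symbol Ccbl2, stood at -0.63 (SE 0.30, adjusted p = 0.283), Got2 at -0.37 (SE 0.19, adjusted p = 0.314) and Kyat1, listed as Ccbl1, at 0.49 (SE 0.50). The value of Kyat1 was -0.12 without Comb replicate 3, where it had 71 counts against 30 or fewer elsewhere. Qprt, which makes the NAD precursor from quinolinic acid, had 0 to 26 counts, Acmsd 0 to 8 and Aadat 0 to 3, and these 3 genes were not tested.

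Wars varied least. Its counts were 358, 329 and 412 for Con, 363, 477 and 285 for SFIH, 270, 213 and 278 for PD, and 397, 327 and 284 for Comb. As CPM, the 3 PD tumors at 29.0, 27.1 and 29.1 lay below the 3 Con tumors at 32.7, 34.2 and 41.1, which was the case for 14.8% of the genes tested. The whole range was 1.59-fold, and the group means were 36 ± 4.49 CPM for Con, 32.7 ± 5.76 for SFIH, 28.4 ± 1.15 for PD and 32.8 ± 6.74 for Comb (SD, n = 3).

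The log2 fold change of Wars in PD against Con was -0.24 (SE 0.16, 95% interval -0.60 to 0.12, adjusted p = 1 in edgeR). It was -0.14 (SE 0.16) in SFIH against Con and 0.13 (SE 0.16) in Comb against Con, the last being -0.13 when libraries were scaled by total counts alone. In Comb against PD it was 0.37 (SE 0.16, adjusted p = 0.275), in which Wars was the only member at an unadjusted p under 0.05, beside 18% of all genes. The interaction was 0.51 (SE 0.23, adjusted p = 0.894), at rank 353 of 13464 genes by p. These intervals were the narrowest among the members, and a change of Wars by 2-fold lay outside them in each of these 4 comparisons of groups.

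The other cytosolic tRNA synthetases, a family with the same task for other amino acids, gave a scale for these values. In Comb against Con all 19 had a negative log2 fold change, with a median of -0.43, and Wars at 0.13 lay above 19 of 19. In Comb against PD 18 of the 19 were negative, with a median of -0.30, and Wars at 0.37 again lay above 19 of 19. The medians were -0.14 and 0.03 without Comb replicate 3, and Wars, at 0.18 and 0.42, lay above 18 and 19 of the 19.

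In PD against Con, by contrast, Wars at -0.24 lay above 7 of 19 and near their median of -0.19. Among the 19, Lars, for leucine, had the largest difference in the anti-PD-1 average at -0.52 (SE 0.34) and Tars, for threonine, the smallest at 0.02 (SE 0.18). None of the 20 synthetases was called in any comparison, and whether Wars differed from the others was not tested.

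**Figure D4:**
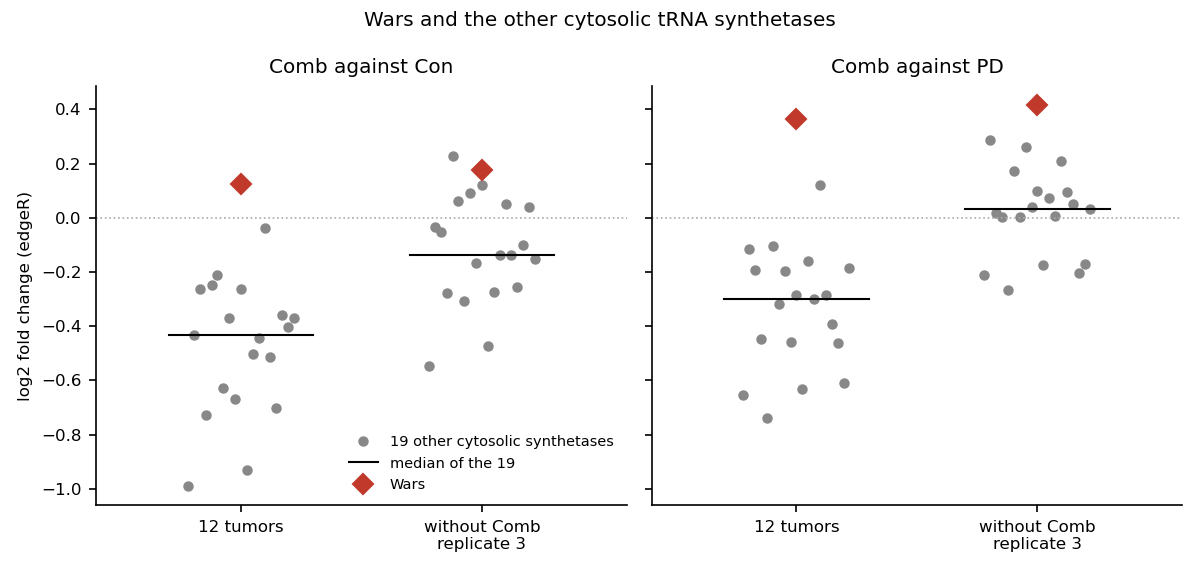
Log2 fold changes (vertical axis, edgeR) of Wars (diamond) and of 19 other cytosolic tRNA synthetases (circles, spread sideways for visibility) in Comb against Con and Comb against PD, with all 12 tumors and without Comb replicate 3, where the bar is the median of the 19. Wars lies above 19 of 19 in 3 of the 4 columns and above 18 of 19 in Comb against Con without Comb replicate 3.

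Ahr, the receptor gene, was lowest in PD. Its counts were 189, 127 and 154 for Con, 326, 192 and 121 for SFIH, 49, 142 and 52 for PD, and 210, 86 and 173 for Comb. PD replicates 1 and 3, at 5.27 and 5.44 CPM, were the lowest of all 12 tumors, while PD replicate 2 at 18 CPM lay above all 3 Con tumors, so that the group was split. Of the 75-base stretches of the Ahr transcripts, 0.86% also occur in Gm48236, and the other 6 genes share none with another gene.

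The group means of Ahr were 15.3 ± 2.02 CPM for Con, 18.3 ± 7.41 for SFIH, 9.58 ± 7.33 for PD and 15.1 ± 6.06 for Comb (SD, n = 3). The log2 fold change in PD against Con was -0.54 (SE 0.51, adjusted p = 1 in edgeR), and in Comb against PD 0.79 (SE 0.51, adjusted p = 0.398). Without PD replicate 2, the first was -1.46. In Comb against Con it was 0.25 (SE 0.50), and -0.01 when libraries were scaled by total counts alone. The permutation test of levels gave -0.545 in log2(CPM + 1) for anti-PD-1 antibody (exact permutation p = 0.15), and -0.809 (exact permutation p = 0.045) without PD replicate 2.

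Of the 11 partners and targets of AHR, 7 were tested and 0 called by edgeR in any comparison, with 3 higher and 4 lower in the anti-PD-1 average. DESeq2 called 1 of them there, Cyp1b1, and 2 in Comb against Con, Cyp1b1 and Tiparp. Cyp1b1, a cytochrome P450 that AHR induces and that stromal cells also express, had the largest difference of the list. Its counts were 12, 14 and 15 for Con, 23, 25 and 54 for SFIH, 44, 68 and 84 for PD, and 40, 285 and 251 for Comb, so that all tumors of each treated group lay above all Con tumors, as did 7.55% of the genes tested with SFIH, 5.76% with PD and 7.6% with Comb. The log2 fold change was 4.13 (SE 0.78, adjusted p = 0.0665 in edgeR, and 4.11e-06 in DESeq2) in Comb against Con and 2.71 (SE 0.52, adjusted p = 0.0973, and 3.43e-05 in DESeq2) in the average. Without Comb replicate 3 these were 3.84 and 2.58, and the fibroblast marker sums were likewise highest in Comb replicates 3 and 2, at 17310 and 10360 CPM. The part of fibroblast RNA in the Cyp1b1 difference was not tested.

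The rest of the list did not follow Cyp1b1. Cyp1a1, the classical target of AHR, had 0 counts in all 12 tumors, which allows at most 0.245 to 0.381 CPM in each, and Ahrr, the repressor that AHR induces, had 6 counts at most. Tiparp, another target, chosen after its values were seen, was lower in Comb than in Con by DESeq2 alone, with a log2 fold change of -1.44 in edgeR (SE 0.47, adjusted p = 0.0976, and 0.027 in DESeq2). Ptges3, a chaperone partner of AHR, had the smallest difference in the average at -0.09 (SE 0.20).

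Interferon gamma signaling lies upstream of Ido1 and Wars, both of which it is known to induce. In the anti-PD-1 average, 10 of its 10 listed genes had a positive log2 fold change, with a median of 0.61 beside -0.03 for all genes. Without Comb replicate 3 all 10 were still positive, with a median of 0.46. With libraries scaled by total counts alone the median was 0.42 beside -0.21 for all genes. On that scale the mean log2(CPM + 1) of Socs3 was 6.76 in Con and 6.75 in PD, and 6.94 in SFIH and 6.63 in Comb. Of the 10 listed genes, 0 were called by edgeR. DESeq2 called 4 of them, namely Ifng, Ifngr1, Irf1 and Irf8, beside 7.89% of all genes it tested. The counts of Ifng, the cytokine itself, were 8, 2 and 14 for Con, 29, 7 and 11 for SFIH, 17, 44 and 19 for PD, and 14, 92 and 92 for Comb, and its value in the average was 2.36 (SE 0.63, adjusted p = 0.098 in edgeR, and 0.00532 in DESeq2).

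Comb replicates 2 and 3 and PD replicate 2 thus held the most Ifng, as they held the most Kmo. Irf1, a transcription factor that interferon gamma induces, stood at 0.61 (SE 0.14, adjusted p = 0.0973, and 0.000908 in DESeq2) in the average and at 0.64 without Comb replicate 3. Socs3, a feedback inhibitor, stood at 0.03 (SE 0.17). Beside these positive values, Ido1 stood at -0.34 (SE 0.69), Ido2 at -0.57 (SE 0.44) and Wars at 0.01 (SE 0.12) in the same average, the last being -0.17 when libraries were scaled by total counts alone. The T cell marker sums were highest in the same 3 tumors, at 134.4 CPM in Comb replicate 2, 285.9 in Comb replicate 3 and 129.8 in PD replicate 2, and their part in the Ifng difference was not tested.

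Lack of an amino acid is sensed by GCN2, which acts through ATF4. All 10 listed genes of this response had a negative log2 fold change in PD against Con, with a median of -0.42 beside 0.01 for all genes, and 9 of 10 had one in the anti-PD-1 average, with a median of -0.52, or 8 of 10 with a median of -0.30 without Comb replicate 3. None was called by edgeR, and 1, Ddit4, was called lower by DESeq2 in the average. Ddit4, an inhibitor of mTOR signaling, had the largest difference, with levels of 589, 516 and 599 CPM for Con, 256, 293 and 335 for SFIH, 274, 276 and 279 for PD, and 189, 69.8 and 27.0 for Comb.

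All tumors of each treated group were thus below all Con tumors for Ddit4, as were 8.85% of the genes tested with SFIH, 14.8% with PD and 22.2% with Comb. Its log2 fold change in Comb against Con was -2.41 (SE 0.46, adjusted p = 0.0665 in edgeR, and 2.11e-05 in DESeq2) and in the average -1.21 (SE 0.31, adjusted p = 0.098, and 0.00571 in DESeq2). Atf4 itself had the smallest at -0.08 (SE 0.25). In Comb against Con the median of the list was -0.54, and -0.22 without Comb replicate 3, where 6 of 10 were negative.

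Uptake and other uses of tryptophan gave 9 tested genes of 13, of which edgeR called 0 in any comparison and DESeq2 called 1, Slc7a8, in Comb against Con and in the anti-PD-1 average. Maob, a monoamine oxidase, had the largest difference in the average among those with enough counts, at 1.53 (SE 0.68, adjusted p = 0.259 in edgeR), or 0.70 without Comb replicate 3, where it had 63 counts against 16 or fewer elsewhere, and Maoa had the smallest at -0.03 (SE 0.23). Slc7a5, the catalytic subunit of a main transporter of tryptophan, stood at -0.46 (SE 0.41). Slc7a8, a related transporter, chosen after its values were seen, had counts of 57, 31 and 103 for Con, 113, 55 and 54 for SFIH, 114, 119 and 107 for PD, and 101, 127 and 139 for Comb, with 1.18 in the average (SE 0.29, adjusted p = 0.098 in edgeR, and 0.00522 in DESeq2). Il4i1, a further enzyme that breaks down tryptophan, had 1 count in all 12 tumors together.

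**Figure D5:**
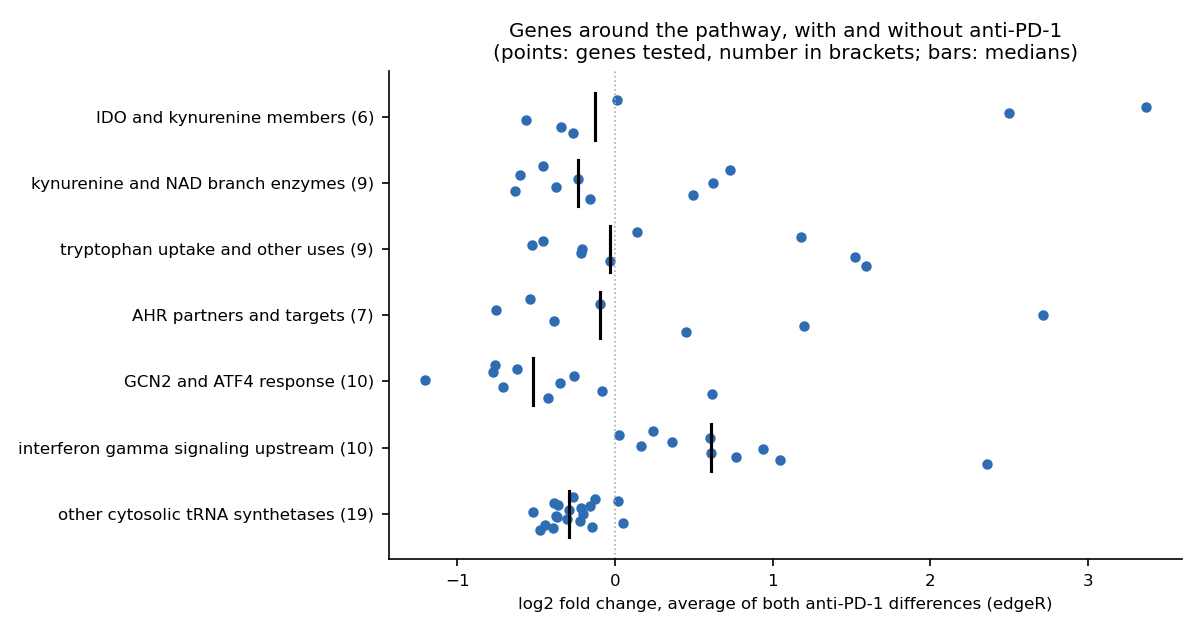
Log2 fold changes in the anti-PD-1 average (horizontal axis, edgeR) of the tested genes in 7 lists around the kynurenine route, where points are genes, brackets give the number tested and bars are medians. The interferon gamma list lies to the right of 0 with a median of 0.61, the GCN2 and ATF4 list has a median of -0.52 and the members spread from -0.57 for Ido2 to 3.37 for Kynu.

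A 3′ library yields reads from the end of a transcript whatever its length, so CPM was not divided by length. How fully the 3′ end of each gene was captured and counted was not tested. The order of the members is therefore one of reads and need not be one of transcripts. By their median over 12 tumors the order was Wars at 31.1 CPM, Ahr at 15.6, Ido2 at 10.8, Ido1 at 3.07, Kmo at 1.06, Kynu at 0.136 and Tdo2 at 0. The range of each member overlapped that of the next in this order. The 12 values of Wars lay above those of the other members with an exception. The highest Ahr value, 26.6 CPM in SFIH replicate 1, exceeded the lowest Wars value.

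The genes whose pattern over the 12 tumors was most like that of a member were found by the root mean square difference of mean-centred log2(CPM + 1). For Kmo these were Pde3b at 0.182, Nhsl2 at 0.19 and Thy1 at 0.192, among 6268 genes that varied at least 50% as much, where Kmo itself had an SD of 0.96. For Ido1 they were Trim24 at 0.306, Plk3 at 0.319 and Alpk1 at 0.365, and for Ido2 Serp2 at 0.23, Frrs1 at 0.273 and Naa40 at 0.291. For Kynu they were Rftn1, Polr2b and 2510009E07Rik at 0.161 to 0.194, for Wars Isca2, Fbxo38 and Siva1 at 0.118 to 0.125, and for Ahr 2010001A14Rik, Dffa and Trnp1 at 0.259 to 0.281.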

How the data were processed

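Raw read counts per gene symbol were deposited by the authors as 1 table with a column for each of the 12 tumors. Libraries were made with the QuantSeq 3′ kit and read as single ends of 75 bases on a NextSeq instrument. The aligner, counting tool, genome build and annotation are not given in the sources used here. Columns were assigned to groups from the sample labels. The labels do not say whether tumors came from separate cages or batches. The p-values set a difference between groups against the spread between these tumors.

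Counts were tested in R 4.3.3 with edgeR 4.0.16 (filterByExpr, TMM, quasi-likelihood test, all 12 tumors in 1 fit without a block), and p-values were adjusted by Benjamini-Hochberg over the 13464 genes kept, with a threshold of 0.05. The 6 comparisons share control samples. Alternatives were DESeq2 1.42.0, its size factors, no TMM, no filter, a replicate block, the compared groups alone and each tumor left out. Levels are log2(CPM + 1) without TMM, compared by two-sided exact permutation tests, in which 3 tumors against 3 cannot reach a p under 0.1. Intervals are 95% intervals before adjustment. Total counts were 7870741 to 12261032 per tumor, and 3 counts were taken as the floor.

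The members, the 6 pathway lists and the 14 marker lists were chosen with earlier results of these data known, and no result of a list is independent support. All 75 pathway symbols and 104 of 106 marker symbols were found. From each pathway list the text names the genes called, or where none was, the genes with the largest and smallest difference in the anti-PD-1 average among those with at least 10 counts on average. The kynurenine and interferon gamma lists could be named gene by gene, and any further gene (Fscn1, Zbtb46, Ccr7, Pdgfra, Cd8a, Lck, Slc7a5, Il4i1, Cyp1a1, Ahrr, epithelial and hepatocyte markers among them) was chosen after its values were seen. Replicate columns differed by more than counting noise. The scripts were tested on simulated data. Python 3.11.15 with pandas 2.3.3 and matplotlib 3.10.9 was used for levels and figures.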

Additional observations from a re-analysis of the deposited data

How the results depend on the processing

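Of 663 fold changes of members recomputed under the alternatives, 620 kept their sign and side of the threshold, 36 changed sign and 7, all of Kmo or Kynu, passed the threshold. The count of genes called, 0 in edgeR, moved with DESeq2 to 2 for SFIH against Con, 2 for PD against Con, 2031 for Comb against Con, 390 in Comb against PD, 1210 in the anti-PD-1 average and 1 in the interaction, and with DESeq2 without Comb replicate 3, chosen after seeing the data, to 41, 61, 717, 14 and 969 in the first 5. The members called in DESeq2 were 1 in Comb against Con and 1 in the average, and 1 in the average also without Comb replicate 3, each time Kmo. Leaving out tumors in turn, edgeR called 0 to 3943 genes in Comb against Con, 0 to 2100 in Comb against PD, 0 to 2370 in the average and 0 to 0 elsewhere, with 0 to 2 members in Comb against Con and 0 to 2 in the average. The high ends came without Comb replicate 1, and without Comb replicate 3 there were 5 genes in Comb against Con and 2 in the average.

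The cause of the sign changes was not tested. With a replicate block, Ido1 was -0.077 in SFIH against Con, -0.18 in Comb against PD and -0.10 in the interaction, 0 genes were called, and no other call changed. The correlations gave no sign that the replicate numbers pair the tumors. The 18 same-numbered pairs ran from -0.288 to 0.409, with a median of -0.006 and 6 over 0.1. The 36 other pairs between groups ran from -0.342 to 0.31, with a median of 0.038 and 12 over 0.1. A shared cage or batch was not tested. Without TMM, which moved the median of all genes from -0.03 to -0.29 in Comb against Con and from -0.03 to -0.21 in the average, Wars was -0.13 and -0.17 there and Ahr -0.015 in Comb against Con. Without a filter, Wars was -0.0098 in the average. With DESeq2 without Comb replicate 3, Ido1 was 0.43 and Ido2 0.032 in Comb against Con, Ido2 0.33 in Comb against PD and Kmo -0.40 in the interaction.

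Leaving out tumors in turn gave these ranges of log2 fold change. In SFIH against Con, Ido1 ran from -0.74 to 0.57 (with -0.12 and -0.17 without Con replicates 2 and 3), Ido2 from -0.16 to 0.62, Kynu from -3.72 to 2.41 and Ahr from -0.10 to 0.40. In PD against Con, Ido1 ran from -0.69 to 0.056. In Comb against Con, Ido1 ran from -0.69 to 0.41, with 0.35 without Con replicate 1, and Ido2 from -0.89 to 0.019. In Comb against PD, Ido1 ran from -0.25 to 0.86 and Ido2 from -0.58 to 0.31, with 0.04 without PD replicate 1. In the average, Ido1 ran from -0.60 to 0.060 and Wars from -0.034 to 0.074. In the interaction, Ido1 ran from -0.31 to 1.04, Ido2 from -0.95 to 0.011, Kynu from -0.82 to 5.31 and Kmo from -0.40 to 1.39.

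In the permutation tests of levels, leaving out tumors gave differences of 0.442 to 0.967 for Kynu (exact p 0.015 without Comb replicate 1), 0.838 to 1.5 for Kmo (exact p 0.005 to 0.065) and -0.809 to -0.383 for Ahr. With TMM scaling, the Wars difference was 0.0199 (exact p = 0.865) in place of -0.164 (exact p = 0.21). With the compared groups alone, genes that failed the filter gave no value, Kmo and Kynu among them in several comparisons. Depth limited Tdo2, Kynu and Kmo, whose Con tumors held 0 to 7 counts.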
